A study of Mus musculus with 12 samples.

Results

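The plasminogen activation system and a set of serpins were followed across 12 mouse hearts through 9 genes, chosen by name from the 13552 genes of the expression table. They comprise the plasminogen activators Plat and Plau, the receptor Plaur, the serpins Serpina3n, Serpine2, Serping1 and Serpinh1, and the coagulation regulators F3 and Thbd. Serpina3n is in the set because it was among the largest rises after pressure overload in wild type hearts, so its values there chose it, and the comparison of operated with sham-operated wild type hearts is given below for all 9 genes as a description with no test. All 9 genes reached the minimum level for testing, set at 1 RPKM (reads per kilobase of exon at a common library size) in at least 3 mice, as did 11240 genes of the table.

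Hearts were collected 9 h after surgery from male C57BL/6 mice (C57BL/6 J in the methods) aged 8 to 10 weeks, in 4 groups of 3 mice. Transverse aortic constriction (TAC) is a surgical narrowing of the aorta that loads the left ventricle with pressure, and the sham operation leaves the narrowing out. The groups were wild type (WT) sham (mice 1, 2 and 3), WT TAC (mice 7, 9 and 10), KI sham (mice 1, 2 and 3) and KI TAC (mice 5, 6 and 7), where KI denotes homozygous Bcl-xL S14A knock-in mice, in which the serine that is phosphorylated in the survival protein Bcl-xL is replaced by alanine in every cell of the body. The KI line came from gene-targeted embryonic stem cells whose selection cassette was removed with a CMV-Cre strain, and it was crossed back to C57BL/6J over more than 8 generations. WT mice were bought and not stated to be littermates, so the S14A allele cannot be told apart from any remaining difference between the colonies. Each library came from heart RNA, and depth read back from the table was 23650189 to 32455181 reads on genes. In such bulk RNA, fewer cells of a type and less RNA per cell cannot be told apart. Markers of the labelled tissue were present throughout, since the summed level of 5 cardiomyocyte genes was 12300 to 22400 RPKM in every heart, and that of 5 endothelial genes 225 to 322 RPKM. Of the cardiomyocyte genes, Myl2 was higher in the KI group between the TAC groups (log2 difference 0.86, adjusted p = 0.0447, limma) and the other 4 did not pass there, and none of the 5 passed in KI TAC against KI sham.

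Plasminogen activators are secreted serine proteases that cut plasminogen into plasmin, which dissolves fibrin and cleaves matrix proteins. Plat encodes the tissue-type activator, associated with fibrin and endothelium, and Plau the urokinase-type activator, which is held at the cell surface by its receptor, encoded by Plaur. Serpins are inhibitors that trap their target protease in an irreversible complex. Serpine2 (protease nexin 1) inhibits thrombin and urokinase, Serping1 (C1 inhibitor) acts on complement C1 and contact proteases, and Serpina3n is a secreted acute-phase serpin. Serpinh1 (HSP47) has the serpin fold but is a collagen chaperone of the endoplasmic reticulum, not an inhibitor. F3 (tissue factor) starts coagulation, and Thbd (thrombomodulin) turns thrombin towards activation of protein C.

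Windows before the RefSeq start of 5 of the 9 genes were in the promoter table used here (GRCm38.p6): Serpina3n, Serpine2, Serpinh1, Plaur and F3. That of Serpine2 lies inside the longer span of the gene given below, since the annotations place its start differently. The 250 bases before the RefSeq start were searched on both strands for TGANTCA (the AP-1 site bound by Fos and Jun proteins), TTCNNNGAA (STAT), GAANNTTC (part of a heat shock element) and TATAAA. AP-1 letters were found in 2 genes, with 1 match in Plaur at bases -69 to -63 from the start and 2 matches in F3 at -146 to -140 and -135 to -129. These letters occur in 6.75% of the 32851 promoter windows. None of the 5 windows held the STAT, heat shock or TATA letters, which occur in 7.02%, 6.69% and 12.4% of all windows. A match is a description of the sequence and not a measured binding site. The windows of Plaur and F3 are shown because they hold the AP-1 letters (in capitals), and that of Serpina3n because it had the largest fitted difference of the 9 genes between TAC and sham hearts. Plaur lies at chr7:24462233-24462482 (plus strand), F3 at chr3:121723287-121723536 (plus strand) and Serpina3n at chr12:104406458-104406707 (plus strand), each read 5′ to 3′.
Plaur: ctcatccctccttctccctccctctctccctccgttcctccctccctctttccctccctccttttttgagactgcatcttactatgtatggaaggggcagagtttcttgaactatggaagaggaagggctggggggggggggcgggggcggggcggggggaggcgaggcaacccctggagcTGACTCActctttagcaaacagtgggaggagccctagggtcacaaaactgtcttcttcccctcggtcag
F3: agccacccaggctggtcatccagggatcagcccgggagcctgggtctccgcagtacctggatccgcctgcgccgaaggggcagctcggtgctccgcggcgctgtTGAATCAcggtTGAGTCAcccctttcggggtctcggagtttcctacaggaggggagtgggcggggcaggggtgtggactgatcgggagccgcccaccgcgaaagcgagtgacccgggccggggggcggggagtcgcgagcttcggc
Serpina3n: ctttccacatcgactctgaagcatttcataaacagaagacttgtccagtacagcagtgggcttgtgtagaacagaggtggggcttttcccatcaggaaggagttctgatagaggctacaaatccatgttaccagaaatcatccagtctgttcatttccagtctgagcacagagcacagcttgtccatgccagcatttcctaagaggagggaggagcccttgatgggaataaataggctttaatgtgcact

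After TAC in KI hearts, the urokinase receptor, the tissue-type activator and Serpina3n rose and the urokinase-type activator did not pass the test. Of the 9 genes tested in KI TAC against KI sham hearts, 3 were higher and 0 lower at an adjusted p under 0.05, where 8.57% of all genes tested were higher and 14.7% lower. Serpina3n is among the 3 and was chosen for its rise with the same surgery in WT hearts. The median log2 difference of the 9 genes was 0.18, beside -0.10 for all genes. The test throughout was limma with a variance trend on log2(RPKM + 1), fitted to all 12 mice, with Benjamini-Hochberg adjustment over the 11240 genes, and log2 differences below are on this scale, which understates the change of genes near 1 RPKM. KI TAC was also the comparison group for WT TAC, so both comparisons share these 3 hearts.

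**Figure D1:**
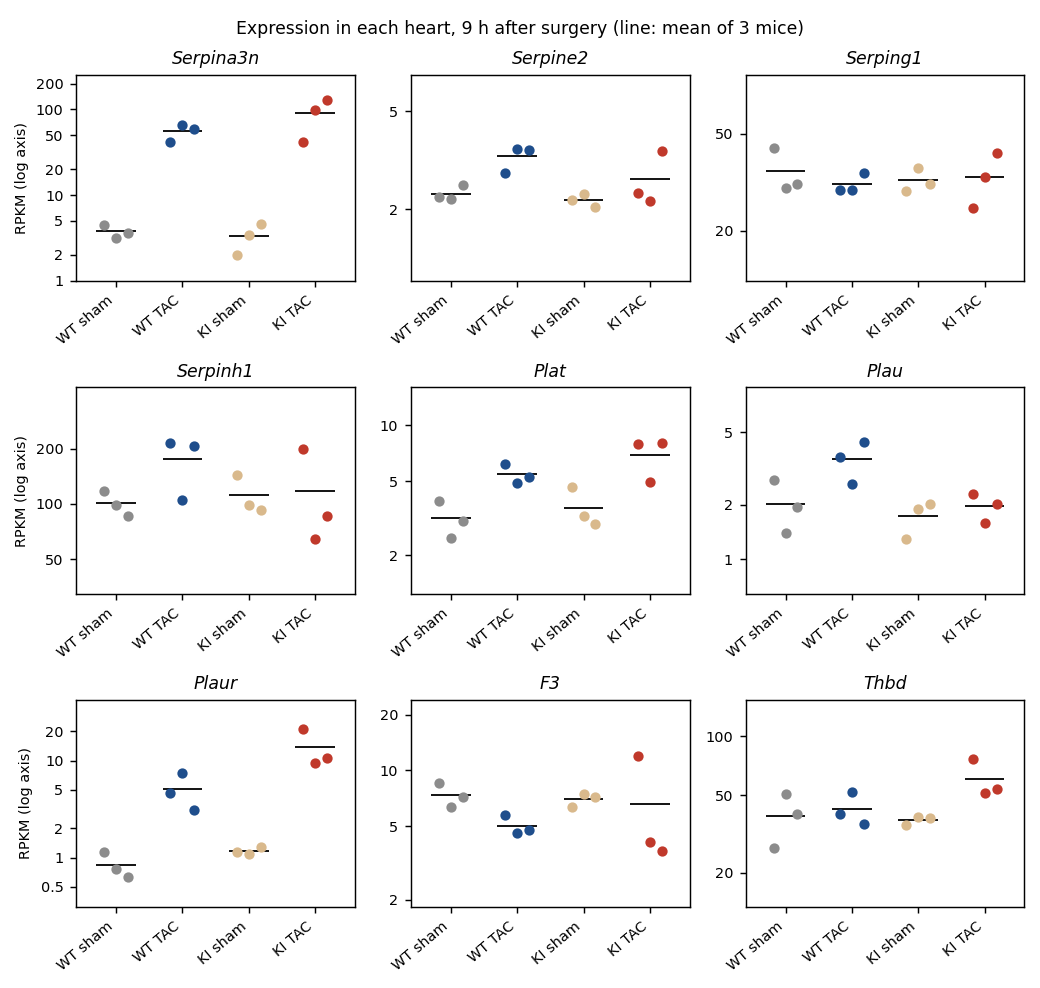
RPKM (log axis) of the 9 genes in each heart, by group; each point is 1 mouse and the line is the mean of 3 mice. Serpina3n and Plaur stood higher in every TAC heart than in any sham heart, while Serping1 overlapped across all 4 groups.

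Plaur, the urokinase receptor, lies on chromosome 7 at 24462484 to 24475968 (plus strand, GRCm38). It stood at 1.15, 0.759 and 0.626 RPKM in WT sham hearts and 4.65, 7.43 and 3.10 RPKM in WT TAC hearts. In KI sham hearts it stood at 1.14, 1.10 and 1.28 RPKM, and in KI TAC hearts at 20.9, 9.53 and 10.7 RPKM. All 6 TAC hearts lay above all 6 sham hearts, and all 3 KI TAC hearts above all 3 WT TAC hearts. In KI hearts the mean rose 11.7-fold with TAC, a log2 difference of 2.68 (SE 0.28, adjusted p = 5.76e-05, n = 3 per group, limma). In WT hearts the mean after TAC was 5.98 times that after sham (log2 difference 1.66, SE 0.28). Plaur was 2.71 times higher in KI TAC hearts than in WT TAC hearts (log2 difference 1.26, SE 0.28, adjusted p = 0.0167, limma), the 1 gene of the 8 tested in this comparison that passed. In this comparison 2.92% of all genes tested were higher and 8.13% lower. The difference was 1.24 without WT TAC mouse 7 (adjusted p = 0.0774, limma) and 1.26 in a fit of these groups alone (adjusted p = 0.0771), about as large as in the fit to all mice, and calls over all genes went from 1242 to 154 and 216 in those fits. The test of the difference itself, the interaction of genotype and surgery, gave 1.02 (SE 0.39, unadjusted p = 0.0216, adjusted p = 0.259, limma), so a larger rise in KI than in WT hearts was not established. As background to that value, no gene of the 11240 passed the interaction test (0%), and 1668 had an unadjusted p under 0.05.

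Plat, the tissue-type activator, lies on chromosome 8 at 22757727 to 22782844 (plus strand). Its level was 3.91, 2.48 and 3.07 RPKM in WT sham hearts, 6.16, 4.90 and 5.26 RPKM in WT TAC hearts, 4.65, 3.24 and 2.92 RPKM in KI sham hearts and 7.90, 4.92 and 7.97 RPKM in KI TAC hearts. TAC hearts did not overlap with sham hearts of their own genotype, whereas KI TAC and WT TAC hearts overlapped. In KI hearts Plat rose 1.92-fold (log2 difference 0.78, SE 0.20, adjusted p = 0.0155, limma), and in WT hearts the ratio of means was 1.73 (log2 difference 0.64, SE 0.20). The difference in KI hearts was 0.73 without sham mouse 2, 0.67 without sham mouse 3 and 0.68 without TAC mouse 5, and missed the threshold in these fits (adjusted p = 0.0501, 0.0786 and 0.0578, limma). Plat did not pass between KI TAC and WT TAC hearts (log2 difference 0.28, 95% interval -0.16 to 0.72, adjusted p = 0.377, limma).

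Plau, the urokinase-type activator, lies on chromosome 14 at 20836660 to 20843385 (plus strand) and was lower than Plat in every heart. It stood at 2.72, 1.39 and 1.94 RPKM in WT sham hearts, 3.65, 2.58 and 4.399 RPKM in WT TAC hearts, 1.30, 1.89 and 2.02 RPKM in KI sham hearts and 2.27, 1.59 and 2.01 RPKM in KI TAC hearts. The 3 WT TAC hearts lay above the 3 KI TAC hearts, while KI TAC overlapped KI sham. In KI hearts the log2 difference was 0.12 (95% interval -0.31 to 0.54, adjusted p = 0.705, limma), beside a description of 0.59 (SE 0.20) in WT hearts. KI TAC hearts had 0.552 times the WT TAC mean (log2 difference -0.61, SE 0.20), which missed the threshold (adjusted p = 0.0602, limma) and passed it without WT TAC mouse 9 (adjusted p = 0.0255). The interaction was -0.48 (adjusted p = 0.428, limma).

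Relations between these genes within a heart were computed after the levels had been seen and are given without a test. The Plaur to Plau ratio of RPKM was 0.424, 0.545 and 0.323 in WT sham hearts, 1.28, 2.88 and 0.705 in WT TAC hearts, 0.88, 0.583 and 0.636 in KI sham hearts and 9.22, 6 and 5.31 in KI TAC hearts. Receptor RNA therefore exceeded activator RNA in all 3 KI TAC hearts, in 2 of 3 WT TAC hearts and in no sham heart. The Plau to Plat ratio was 0.252 to 0.323 in KI TAC hearts and 0.527 to 0.837 in WT TAC hearts, with KI sham mouse 1 at 0.279 among sham hearts of 0.562 to 0.696 otherwise.

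**Figure D2:**
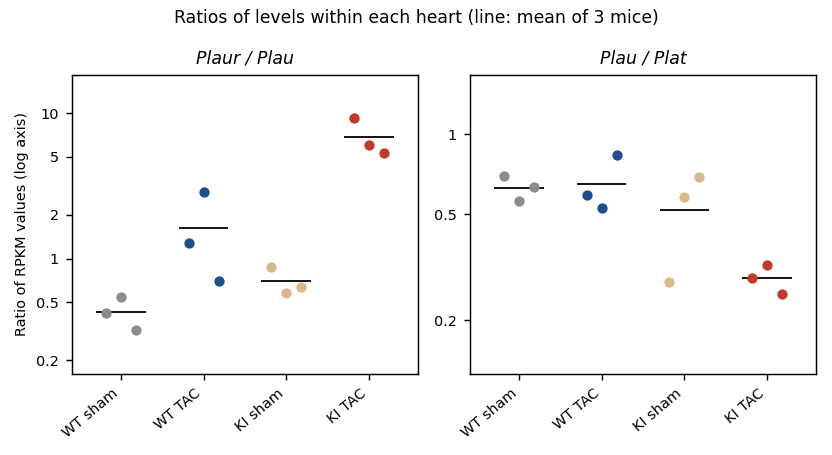
Ratios of RPKM within each heart (log axes) for Plaur over Plau and Plau over Plat; each point is 1 mouse and the line is the mean of 3 mice. Plaur over Plau lay between 5.31 and 9.22 in KI TAC hearts and at or under 2.88 in all other hearts.

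Serpina3n, the acute-phase serpin, lies on chromosome 12 at 104406729 to 104414329 (plus strand) and had the largest differences between TAC and sham hearts of the 9 genes. It stood at 4.52, 3.155 and 3.59 RPKM in WT sham hearts and 41.9, 66.7 and 58.5 RPKM in WT TAC hearts. In KI sham hearts it stood at 1.98, 3.40 and 4.57 RPKM, and in KI TAC hearts at 41.8, 99.7 and 128 RPKM. The lowest TAC heart had 41.8 RPKM and the highest sham heart 4.57 RPKM. In WT hearts, where this rise chose the gene, the mean was 14.8 times the sham mean (log2 difference 3.56, SE 0.35, place 4 among all rises). In KI hearts, which the stated reason for the choice did not name, Serpina3n rose 27.1-fold (log2 difference 4.30, SE 0.35, 95% interval 3.55 to 5.04, adjusted p = 1.07e-05, limma), place 7 among all rises. Earlier results of these data were known at the choice, so this test is not fully independent of it. The mean of KI TAC hearts was 1.61 times that of WT TAC hearts (log2 difference 0.56, SE 0.35), with overlap through KI TAC mouse 5, and this is a description because WT hearts chose the gene. With 1 mouse left out, that difference ranged from 0.24 (without KI TAC mouse 7) to 1.03 (without KI TAC mouse 5). Serpina3n has close copies beside it on the chromosome, and 3 of 13 other Serpina3 genes were in the table. Of its 1990 stretches of 75 bases, the read length, 29 were also in Serpina3e-ps and 26 in Serpina3g.

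Serpine2, the thrombin and urokinase inhibitor (chromosome 1, 79794197 to 79861180, minus strand), stood at 2.24, 2.199 and 2.50 RPKM in WT sham hearts, 2.82, 3.51 and 3.49 RPKM in WT TAC hearts, 2.19, 2.31 and 2.05 RPKM in KI sham hearts and 2.34, 2.15 and 3.45 RPKM in KI TAC hearts. WT TAC hearts lay above WT sham hearts (log2 difference 0.36, SE 0.15), whereas KI TAC and KI sham hearts overlapped through mouse 6 of the TAC group. The KI difference was 0.18 (95% interval -0.15 to 0.51, adjusted p = 0.417, limma).

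Serping1, the C1 inhibitor (chromosome 2, 84765387 to 84775444, minus strand), stood at 43.8, 30.1 and 31.2 RPKM in WT sham hearts, 29.4, 29.4 and 34.6 RPKM in WT TAC hearts, 29.2, 36.3 and 31.2 RPKM in KI sham hearts and 24.8, 33.3 and 41.8 RPKM in KI TAC hearts. All groups overlapped. The log2 difference in KI hearts was 0.02 with a 95% interval of -0.44 to 0.48 (adjusted p = 0.952, limma), and its sign changed when KI sham mouse 1 or KI TAC mouse 7 was left out.

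Serpinh1, the collagen chaperone (chromosome 7, 99345376 to 99353239, minus strand), had the highest level of the 9 genes in sham hearts. It stood at 117.8, 99.0 and 85.7 RPKM in WT sham hearts, 215.3, 104.4 and 206.9 RPKM in WT TAC hearts, 143.4, 98.9 and 92.6 RPKM in KI sham hearts and 199.7, 64.7 and 85.9 RPKM in KI TAC hearts. WT TAC mouse 9 stayed within the sham range, and among KI TAC hearts only mouse 5 stood above the sham range. The KI difference was -0.08 (95% interval -0.88 to 0.72, adjusted p = 0.899, limma) and was positive, at 0.09, when libraries were scaled by the median ratio. KI TAC against WT TAC gave -0.68 (95% interval -1.49 to 0.12, adjusted p = 0.231, limma). With 1 mouse left out, this ranged from -1.15 (without KI TAC mouse 5) to -0.35 (without KI TAC mouse 6), and none of these fits passed.

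**Figure D3:**
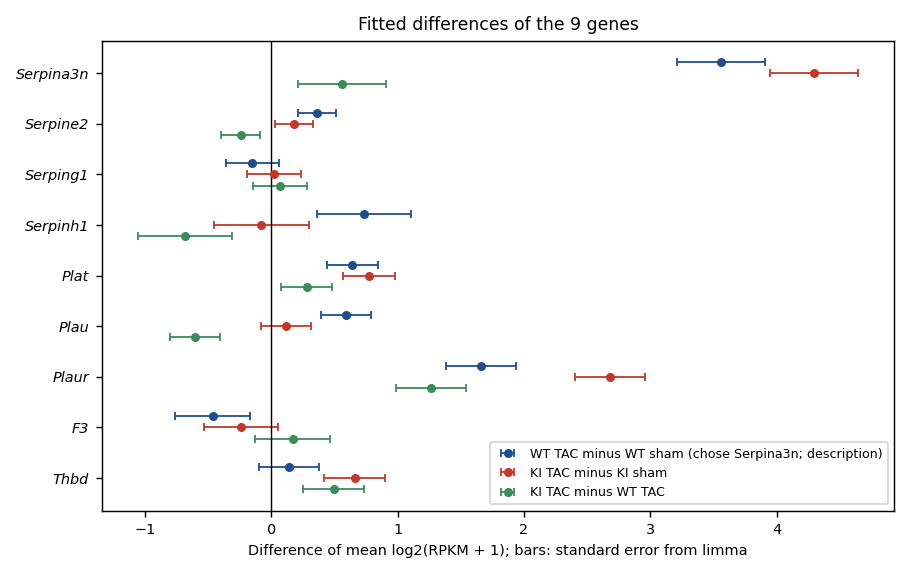
Fitted differences of mean log2(RPKM + 1) for the 9 genes in 3 comparisons, with bars for the limma standard error; WT TAC minus WT sham is a description. Serpina3n and Plaur stood apart on the right in both genotypes, and Plau, Serpinh1 and Serpine2 lay left of 0 for KI TAC minus WT TAC.

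F3, tissue factor (chromosome 3, 121723537 to 121735048, plus strand), stood at 8.50, 6.34 and 7.19 RPKM in WT sham hearts, 5.74, 4.58 and 4.77 RPKM in WT TAC hearts, 6.33, 7.45 and 7.22 RPKM in KI sham hearts and 11.98, 4.10 and 3.67 RPKM in KI TAC hearts. WT TAC hearts lay below WT sham hearts (log2 difference -0.46, SE 0.29). KI TAC mouse 5 lay above every other heart and the other two KI TAC hearts below every other heart, so the KI difference of -0.24 did not pass (95% interval -0.88 to 0.39, adjusted p = 0.588, limma). Without mouse 5 it was -0.71 and passed (adjusted p = 0.0133).

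Thbd, thrombomodulin (chromosome 2, 148404466 to 148408188, minus strand), stood at 26.9, 50.9 and 40.2 RPKM in WT sham hearts, 39.9, 52.0 and 35.7 RPKM in WT TAC hearts, 35.2, 38.8 and 38.1 RPKM in KI sham hearts and 76.4, 51.4 and 53.7 RPKM in KI TAC hearts. WT groups overlapped (log2 difference 0.14, SE 0.24), whereas all KI TAC hearts lay above all KI sham hearts, at 1.62 times the mean. That difference of 0.66 (SE 0.24, 95% interval 0.14 to 1.18) missed the threshold (adjusted p = 0.0618, limma), and it was 0.48 without KI TAC mouse 5. Groups did not overlap for 4 of the 9 genes in KI TAC against KI sham, where this held for 38.3% of all genes, and for 2 of the 8 genes (Plaur and Plau) in KI TAC against WT TAC, where it held for 29.5%. In the WT comparison, where 35.1% of all genes did not overlap and 11.6% passed the test, the groups did not overlap for Serpina3n, Plaur, Plat, Serpine2 and F3, from which nothing is read. With 3 mice against 3, an exact permutation test of a single gene cannot go below 0.1.

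The sham groups did not separate the genotypes. None of the 8 genes tested passed in KI sham against WT sham, with log2 differences from -0.13 to 0.25 and adjusted p of 1 (limma), where 0.0178% of all genes passed; none of the 8 had an unadjusted p under 0.05 (0.329% of all genes did), and limma-voom on recovered reads gave 0 as well. Serpina3n differed by -0.17 there as a description. None of the 8 passed the interaction test, with the smallest adjusted p at 0.259 for Plaur and 1 gene at an unadjusted p under 0.05, where 14.8% of all genes had one.

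KI TAC hearts also differed among themselves. Mouse 5 had the highest level of its group for 5 of the 9 genes (Plaur, F3, Thbd, Serpinh1 and Plau) and the lowest for Serpina3n and Serping1. Mouse 7 had the highest level for the other 4 genes. Markers of neutrophils and monocytes were higher with TAC. The summed level of the genes found (5 of 8) was 0.672 to 1.49 RPKM in WT sham hearts and 5.73 to 11.2 RPKM in WT TAC hearts. It was 0.547 to 0.746 RPKM in KI sham hearts and 4.44 to 21.3 RPKM in KI TAC hearts, highest in KI TAC mouse 5. S100a8 and S100a9, which neutrophils carry, had log2 differences of 1.91 and 2.77 in KI hearts, given without a test because neither reached the 1 RPKM minimum in KI sham hearts. None of the 3 markers tested passed between KI TAC and WT TAC. Macrophage markers summed to 27.6 to 30.8 RPKM in WT sham, 38.5 to 67.2 RPKM in WT TAC, 27.3 to 33.3 RPKM in KI sham and 29.1 to 40.1 RPKM in KI TAC hearts. In KI TAC against KI sham Csf1r alone of the 5 passed, at -0.53 (adjusted p = 0.0419, limma), and the WT differences of Adgre1 and Cd68 were 0.83 and 1.22 as a description. Between the TAC groups 2 of the 5 passed. Adgre1 and Csf1r had log2 differences of -1.15 and -0.91 (adjusted p = 0.0135 and 0.00913, limma), whereas Cd68 (-0.55), Cd163 (0.745) and Mrc1 (0.11) did not pass (adjusted p = 0.143, 0.11 and 0.829). Fibroblast markers summed to 104 to 156 RPKM in WT sham, 123 to 205 RPKM in KI sham, 126 to 549 RPKM in WT TAC and 85.3 to 155 RPKM in KI TAC hearts. Col1a1 alone ranged from 41.2 to 461 RPKM over all hearts, and none of the 5 fibroblast markers passed between KI TAC and WT TAC. In KI TAC against KI sham 1 of the 5 was lower, Lum, a collagen-binding proteoglycan (-1.14, adjusted p = 0.0476, limma). Smooth muscle and pericyte markers summed to 146 to 165 RPKM in WT sham, 179 to 193 RPKM in WT TAC, 134 to 189 RPKM in KI sham and 137 to 174 RPKM in KI TAC hearts, so the TAC groups did not overlap. Of these 5 markers Cspg4 passed between the TAC groups, lower in KI (-0.80, adjusted p = 0.0479, limma), and none passed in KI TAC against KI sham. Unlike the calls of list genes, the calls of marker genes were not refitted in other settings or with 1 mouse left out. The part of these cell types in the levels of Plaur, Plau and Serpinh1, and in the list genes given below, was not tested. Of 6 liver markers only Ahsg was found, at 0.428 to 3.87 RPKM. Over the 12 hearts, platelet markers (3 of 5 found) summed to 6.81 to 13.8 RPKM and mesothelium markers (2 of 5 found) to 1.1 to 4.99 RPKM. Red blood cell markers summed to 145 to 171 RPKM in WT sham and 74.8 to 114 RPKM in WT TAC hearts. In KI hearts these sums were 134 to 244 RPKM after sham and 97.7 to 257 RPKM after TAC. Of the mast cell list only Kit was found (0.441 to 1.70 RPKM), and of the adipocyte list none. Of the atrial list only Nppa was found, the natriuretic peptide gene that loaded ventricles also express, at 24.7 to 65.3 RPKM in WT sham, 207 to 758 RPKM in WT TAC, 27.1 to 65.2 RPKM in KI sham and 57.8 to 195 RPKM in KI TAC hearts. Between the TAC groups Nppa was lower in the KI hearts (log2 difference -2.12, adjusted p = 0.0251, limma) and did not pass in KI TAC against KI sham (1.19, adjusted p = 0.119), and its part in the levels of the 9 genes was not tested.

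Lists of related genes were counted in the same fit. Their counts stand beside the shares of all genes tested given above, 8.57% higher and 14.7% lower in KI TAC against KI sham, and 2.92% higher and 8.13% lower in KI TAC against WT TAC, and their medians beside -0.10 and -0.12 for all genes. Among the 8 tested of 15 partners of plasminogen activation, 2 rose in KI hearts and 1 fell, with a list median of -0.11. The 1 lower gene of 8 is near the share of all genes. The genes that rose were Anxa2 and S100a10, which together form a plasminogen receptor at the cell surface. Anxa2 went from 7.65 ± 1.27 to 16.7 ± 3.45 RPKM (SD, n = 3; log2 difference 1.02, adjusted p = 0.00324, limma) and S100a10 from 12.2 ± 3.38 to 22.2 ± 2.56 RPKM (0.84, adjusted p = 0.011). Vtn (vitronectin), a plasma and matrix adhesion protein that the urokinase receptor binds, fell by 0.75 on the log2 scale (adjusted p = 0.0286, limma), and missed the threshold under median-ratio scaling (adjusted p = 0.0559). Between KI TAC and WT TAC hearts, 2 of these genes were lower and none higher (median -0.14). They were Lrp1, an endocytic receptor that clears activators bound to their inhibitors (88.7 ± 11 RPKM in WT TAC hearts, 50.02 ± 19.2 RPKM in KI TAC; log2 difference -0.87, adjusted p = 0.0451, limma), and Mrc2, a collagen receptor that associates with the urokinase receptor (-1.03, adjusted p = 0.0487). Both missed the threshold under quantile or median-ratio scaling, with adjusted p of 0.0556 to 0.069. Plg, the precursor of plasmin itself, was not among the genes of the expression table, so it was not analysed here.

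Of 11 other serpins counted here, 6 were tested. In KI hearts the pseudogene Serpina3e-ps rose from 0.117 to 3.13 RPKM (log2 difference 1.80, adjusted p = 0.000184, limma) and Serpinb9 fell by 0.56 (adjusted p = 0.0459), with a median of -0.14. Serpinb9 missed the threshold under 4 of the 6 alternative settings that kept all mice, with adjusted p of 0.0526 to 0.0753. The pseudogene reached 1 RPKM in the 6 TAC hearts and in no sham heart. It thus entered the test through groups in which it was high, and its call is not read as support. It also shares the stretches with Serpina3n given above, so its level is uncertain. Between KI TAC and WT TAC hearts 3 were lower and none higher, with a median of -0.69. These were the intracellular serpins Serpinb6b (22.2 ± 5.05 against 10.4 ± 2.11 RPKM; -1.03, adjusted p = 0.00869, limma), Serpinb9, the granzyme B inhibitor (-0.78, adjusted p = 0.0232), and Serpinb1a, an inhibitor of neutrophil proteases. Serpinb1a stood at 2.42, 1.06 and 4.11 RPKM in WT TAC hearts and at 0.774, 0.617 and 0.909 RPKM in KI TAC hearts. It reached 1 RPKM in the 3 WT TAC hearts alone, so it entered the test through the group in which it was high, and its call is not read as support.

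Among 10 tested genes of the tissue factor and thrombin pathway (22 listed), 1 rose and 2 fell in KI hearts (median -0.02), near the shares of all genes, and none passed between KI TAC and WT TAC (median -0.42). F2rl1, a protease-activated receptor, rose by 0.55 (adjusted p = 0.0184, limma) and reached 1 RPKM in TAC hearts alone. It thus entered the test through groups in which it was high, and its call is not read as support. Ggcx and Vkorc1, enzymes of the vitamin K cycle that modifies coagulation factors, fell by 0.77 and 0.81 (adjusted p = 0.0162 and 0.0434, limma). Vkorc1 missed the threshold under 4 of the 6 alternative settings that kept all mice, with adjusted p of 0.0503 to 0.061. None of 10 tested genes of the complement cascade passed in either comparison (medians 0.10 and -0.29), while 2 and 3 of them had an unadjusted p under 0.05, which 36.8% and 30.3% of all genes had. Of 16 tested collagen folding partners of Serpinh1, Crtap alone fell in KI hearts (-0.73, adjusted p = 0.0274, limma; list median -0.18), and it missed the threshold under median-ratio scaling (adjusted p = 0.0727). Between KI TAC and WT TAC 4 of the 16 were lower (median -0.41), where 8.13% of all genes were: P3h2 and P3h3, which hydroxylate prolines in collagen (-1.18 and -0.91, adjusted p = 0.0116 and 0.0184, limma), Crtap, which takes part in the same modification (-0.81, adjusted p = 0.032) and the procollagen protease Bmp1 (-0.61, adjusted p = 0.0437). Here Crtap missed the threshold under median-ratio scaling (adjusted p = 0.0766, limma), and Bmp1 under quantile and median-ratio scaling (0.058 and 0.0933). Of 3 tested serine proteases, Htra1 and Htra3 fell in KI hearts by 0.90 and 1.70 (adjusted p = 0.0178 and 0.00784, limma). In WT hearts, as a description, the TAC minus sham log2 differences were -1.36 for Htra1, -0.88 for Htra3, 1.24 for Anxa2 and 0.43 for S100a10. They were 1.33 for Serpina3e-ps, 1.08 for F2rl1, -0.57 for Vtn and -0.32 for Ggcx. For Vkorc1, Crtap and Serpinb9 they were -0.16, 0.17 and 0.24. All 9 list genes that were lower in KI TAC than WT TAC hearts missed the threshold in a fit of those groups alone, with adjusted p of 0.0518 to 0.139. None of the lists had a gene past the threshold in the sham or interaction comparisons.

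Many calls of list genes missed the threshold with 1 mouse fewer, at differences mostly about as large. In KI TAC against KI sham, S100a10 missed the threshold without sham mouse 3 (adjusted p = 0.0517, limma), Ggcx without sham mouse 1 or 3 (up to 0.0524), F2rl1 without sham mouse 2 or TAC mouse 5 or 7 (up to 0.0621) and Htra1 without sham mouse 2 or 3 or TAC mouse 5 (up to 0.0631). Vtn missed it without sham mouse 1 or 2 or TAC mouse 5 or 6 (adjusted p up to 0.0873, limma), Crtap without sham mouse 1 or 2 or TAC mouse 6 or 7 (up to 0.1), Serpinb9 without sham mouse 1 or 2 or TAC mouse 5 or 7 (up to 0.157) and Vkorc1 without any 1 of the 6 mice (up to 0.125). In these fits the log2 differences were 76.9% to 114% of those from all mice. Anxa2 and Htra3 passed without any 1 of the 6 mice. Serpina3e-ps did too, but its call is not read as support, for the reason given above. In KI TAC against WT TAC, the threshold was missed without WT TAC mouse 7 by Serpinb9, Mrc2, Lrp1, P3h2, P3h3, Crtap and Bmp1, without WT TAC mouse 10 by those genes except P3h2, without KI TAC mouse 6 by Mrc2, Lrp1, P3h2, P3h3, Crtap and Bmp1, without KI TAC mouse 5 by Serpinb9, Mrc2, Lrp1 and Bmp1, and without KI TAC mouse 7 by Mrc2, with adjusted p up to 0.177 (limma). The differences were 76.4% to 104% of those from all mice, except for Mrc2 without WT TAC mouse 10 (-0.60, 58.4%). Serpinb6b passed without any 1 of these 6 mice. Serpinb1a, whose call is not read as support, is left out of this account.

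**Figure D4:**
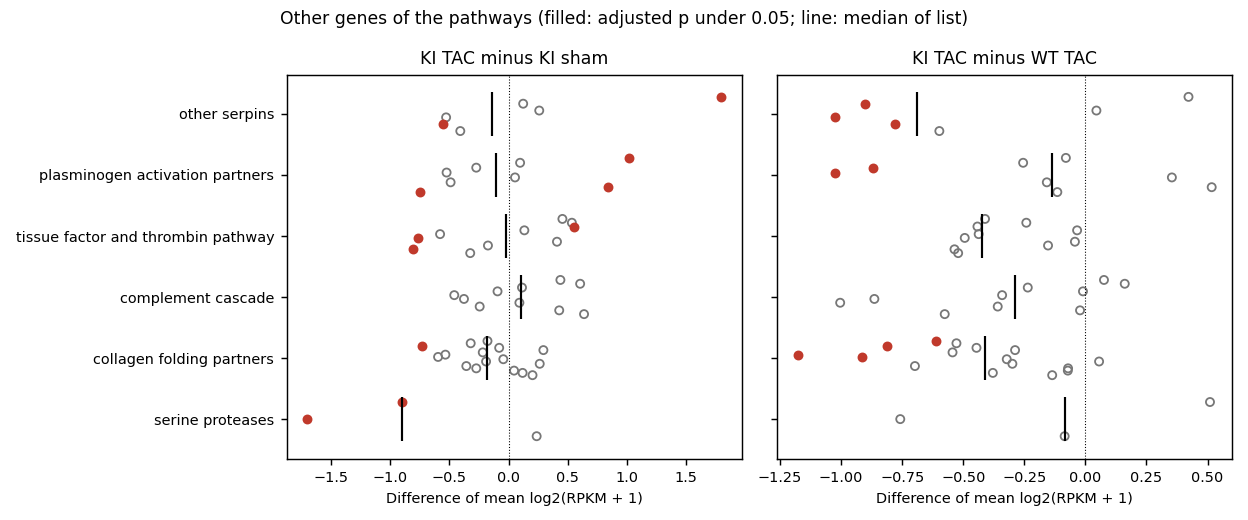
Differences of mean log2(RPKM + 1) for the other genes of each list, KI TAC minus KI sham on the left and KI TAC minus WT TAC on the right; each circle is 1 gene, filled where the adjusted p was under 0.05, and the line is the list's median. Serpina3e-ps stood farthest right on the left panel at 1.80, and all filled circles on the right lay below 0.

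Genes with the most similar pattern were ranked by the root mean square difference of log2(RPKM + 1), each gene centred on its own mean, over the 12 hearts. For Serpina3n these were Lcn2 (0.466), Prg4 (0.509), Fhl1 (0.641), Uck2 (0.65) and Ccn2 (0.684), where the median over all genes was 2.05. For Plaur they were Dbn1 (0.27), Junb (0.303) and Itga5 (0.328), with a median over all genes of 1.29. For Plat they were Tgfb1i1 (0.156), Sh3bp2 (0.159) and Pde1b (0.179), and for Plau they were Cd52 (0.1), Marcksl1 (0.137) and Rrbp1 (0.159). The points share the 12 libraries, so the measure describes these hearts alone. The nearest genes of the other five were Faf2, Lrrc41 and Slx4 for Serpine2, Anapc7, Dmap1 and Sat2 for Serping1, Lmnb1, Cnn2 and Aldh18a1 for Serpinh1, Dapk1, Nedd4l and Ccdc117 for F3, and Sirt1, Chka and Mertk for Thbd.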

How the data were processed

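RNA was sequenced from 12 hearts, grouped by the genotype and treatment labels. Per the labels and methods, the authors trimmed reads with Trimmomatic 0.39, aligned them to GRCm38 with HISAT2 2.2.1, counted them with HTSeq 0.6.1 and used edgeR (version 3.18.1) and limma (version 3.32.10). The step from counts to the deposited table and its gene filter are not given in the sources used here. The deposited values fit RPKM: multiplied by GENCODE M21 exon lengths they summed to 997702 to 1002226 per mouse, and 98.0% to 98.2% of low values were whole reads within 0.05.

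From these, log2(RPKM + 1) was fitted with limma 3.58.1 in R 4.3.3 (trend), with 4 groups and all mice. A count test had been intended had the table held counts. The 9 genes had between 40 reads (Plaur) and 14778 reads (Serpinh1) in a heart. Replicates are separate mice. Named genes were the 9 members, up to 5 changed genes per list and comparison without overlap between groups, and nearest genes other than predicted ones. Serpinb9 in KI hearts lies outside that rule, and its naming and the ratios were chosen after the values were seen. Marker lists of other cell types were taken likewise. Some genes of the lists are not reported here. Members and lists were chosen with earlier results of these data known. Alternatives were a pseudocount of 0.1, no filter, quantile and median-ratio scaling, limma-voom on recovered reads, a fit of the 2 groups compared, a replicate block and leaving out each mouse. Motifs were searched with Python.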

Additional observations from a re-analysis of the deposited data

How the results depend on the processing

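In KI hearts 3 of the 9 genes passed under all 6 settings that kept every mouse, and 2 to 3 with 1 mouse left out. Between KI TAC and WT TAC, 1 of 8 passed except in a fit of those 2 groups (0) and on leaving out a mouse (0 to 2). The calls over all genes there numbered 1242, and 216 in that fit, 154 when WT TAC mouse 7 was left out and 182 when KI TAC mouse 6 was. The interaction gave 0 calls, but 232 when WT TAC mouse 9 was omitted, 183 when KI TAC mouse 7 was and 7 when WT TAC mouse 10 was; none of the 8 genes was among them. The cause was not tested.

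Among genes called, 36.8% were higher in KI TAC than KI sham as deposited, 48.3% after quantile normalization and 55% after median-ratio scaling; for KI TAC against WT TAC these were 26.4%, 46% and 58.6%. The median of all genes went from -0.10 to 0.03 and from -0.12 to 0.03 between deposited and median-ratio scales, and Serpinh1 in KI hearts changed sign to 0.087 with the latter. No call among the 9 genes in KI hearts changed with scaling.

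Leaving out 1 mouse at a time turned the direction of values that had not passed. In KI hearts Serping1 ranged from -0.152 to 0.211, Serpinh1 from -0.549 to 0.256, Plau from -0.005 to 0.209 and F3 from -0.711 to 0.027. Between KI TAC and WT TAC Serping1 ranged from -0.105 to 0.258 and F3 from -0.302 to 0.436, and in the interaction from -0.003 to 0.36 and from -0.246 to 0.492.

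The sham groups share mouse numbers 1, 2 and 3, and the TAC groups number 7 alone, too few for a block. With the number as a replicate block in the sham groups, 0 of the 8 genes passed, and the calls over all genes went from 2 to 0. Deviations of mice 1, 2 and 3 correlated at -0.225, -0.302 and 0.44. These are deviations from means of 3 mice, and unmatched numbers were not compared. The values therefore cannot decide whether the numbers pair the animals. Depth limits Plaur most, with 40 reads in its lowest heart. Outliers were not tested in groups of 3.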
